A study of Mus musculus with 12 samples.

Results

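The lysosomal genes described here are 37 genes that encode soluble hydrolases, activator proteins, membrane proteins, transporters and sorting receptors of the lysosome. They were taken as a list of named symbols, with no threshold on their values, and the cathepsins were not included. Symbols were matched to Ensembl gene IDs with the GENCODE M21 annotation. All 37 were found among the 48526 gene IDs of the count table, and all 37 were among the 12545 genes with enough counts to be tested. The lowest count of any of them in a library was 7, for Gla in a control mouse.

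RNA was sequenced from microglia, the resident macrophages of the central nervous system, sorted from the spinal cord of Biozzi ABH mice. The tested mice had chronic-relapsing experimental autoimmune encephalomyelitis (crEAE), an induced autoimmune disease used as a model of multiple sclerosis, and were taken in the acute, remission or chronic phase. Control mice of the same strain stood against them, with 3 mice in each of the 4 groups and 1 library per mouse. What control mice received, how disease was induced, and the age and sex of the mice are not given in the sources used here. Sorted cells carried CD11b, stained at an intermediate level for CD45 and did not stain for Ly-6C. Because this is bulk RNA, fewer cells of a type and less RNA per cell cannot be told apart.

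Lysosomes are acidic compartments in which phagocytosed and autophagic material is broken down. Each hydrolase removes a particular sugar, sulfate, lipid or peptide bond, membrane transporters export the products, and receptors such as sortilin carry newly made enzymes and cofactors to the compartment. Inherited loss of most of these enzymes causes a lysosomal storage disease, often with damage to the brain. In the spinal cord, microglia take up debris such as myelin, whose lipids are degraded by the sphingolipid enzymes.

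Total counts ranged from 3992885 to 5712376 per library, and 1266782 to 2496096 of these lay outside the 6 features with the most counts and the mitochondrially encoded genes. The acute libraries stood apart from the other 9 in summed markers of monocytes, of neutrophils, of T and NK cells, and of border macrophages. Of 12 monocyte markers, 12 rose in acute against control mice. Their summed level, in CPM (counts scaled to a common library size), was 2033 to 2955 over the acute libraries, against 31.5 to 82.9 over the control libraries. Ly6c2, a gene of the antigen that the sort excluded, was at 64.6 ± 19.0 CPM in acute mice and had no count in control mice (SD, n = 3 each). Of 12 microglia markers, 12 fell, with sums of 2380.0 to 3667 CPM over the acute libraries, against 9728 to 10874 over the control libraries. Fcrls, a gene of resident microglia, was at 0.365 ± 0.404 CPM in acute mice, against 103 ± 10.03 CPM in control mice (SD, n = 3 each). In remission and chronic mice 7 of the 12 microglia markers fell in each, with sums of 7799 to 8020.1 and 7460.5 to 7659 CPM. No neutrophil or T and NK cell marker passed the test there, but 9 of 9 neutrophil markers tested had positive folds in each. The neutrophil sum was 1.06 to 57.8 CPM over the remission libraries and 0.18 to 12.2 over the chronic libraries, against 0.35 to 0.647 over the control libraries. The T and NK cell sum was 0.531 to 3.88, 0.227 to 0.9 and 0 to 0.701 CPM in the same order. In acute mice 9 of 9 neutrophil, 6 of 6 T and NK cell and 6 of 8 myelin markers tested rose. The only border macrophage marker tested, F13a1, rose there too. The 6 listed summed to 66.1 to 113 CPM over the acute libraries, against 0.711 to 1.05 over the control libraries. The myelin sum was 71.5 to 711 CPM over the remission libraries, against 87.3 to 111 over the control libraries. Of the monocyte markers, Lyz2 rose in remission and in chronic mice, and Ccr2 fell in chronic mice. Without Lyz2 the remaining 11 summed to 17.2 to 28.1 CPM over the remission libraries, 22.0 to 47.7 over the chronic libraries and 19.3 to 56.1 over the control libraries. Some markers of astrocytes and of endothelium rose in all 3 phases. In acute mice Aldh1l1, Aqp4, Gfap, Flt1 and Vwf rose and Pdgfrb fell. The acute sums were 183 to 226 CPM for astrocytes and 19.7 to 23.7 CPM for endothelium and pericytes. Of 5 astrocyte markers tested, 5 had a positive fold in remission and 3 in chronic mice. Of 4 markers of endothelium and pericytes tested, 2 had a positive fold in remission and 2 in chronic mice. Aldh1l1 and Slc1a3, of 5 astrocyte markers tested, and Flt1 and Vwf, of 4 of endothelium and pericytes, rose in remission and in chronic mice, and Pecam1 fell in chronic mice. The astrocyte sum was 94.0 to 191 CPM over the remission libraries and 111 to 202 over the chronic libraries, against 58.2 to 74.3 over the control libraries. The sum for endothelium and pericytes was 15.9 to 24.5 CPM and 22.2 to 61.4 CPM in the same order, against 9.28 to 10.5 over the control libraries. At this scaling these sums did not overlap those of control libraries, as was so for the summed lysosomal genes below. The part of all these markers in the results on the 3 phases was not tested.

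The lysosomal genes split in the acute phase, and of those that passed later nearly all were higher. Against control mice, 9 of the 37 rose and 10 fell in acute mice, 16 rose and 0 fell in remission mice, and 20 rose and 1 fell in chronic mice. A gene counts as risen or fallen at an adjusted p under 0.05 in edgeR's robust quasi-likelihood test, fitted to all 12 libraries with Benjamini-Hochberg adjustment over all genes tested. Among all genes tested, 23.7% rose and 20% fell in acute mice, so the 24.3% and 27.0% of the lysosomal genes were near this background. In remission mice the background was 6.06% higher and 3.25% lower, against 43.2% and 0% of the lysosomal genes. In chronic mice it was 9.57% higher and 5.17% lower, against 54.1% and 2.70%. At an unadjusted p under 0.05, 2 lysosomal genes were lower in remission mice, and the share of all genes at that threshold was not counted. DESeq2 called 1 of the 37 lower there, beside 2.71% of all genes it tested. The median log2 fold change of the lysosomal genes was 0.09 in the acute phase, 0.38 in remission and 0.40 in the chronic phase, and that of all genes tested was 0.02, 0.01 and -0.01 in the same order.

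These folds are relative to the scaling by trimmed mean of M values (TMM). With library totals alone, the median of all genes against control shifted to -0.53 in the acute phase, -0.24 in remission and -0.37 in the chronic phase. Of all calls, 22.8% were then rises in the acute phase, 32.6% in remission and 21.7% in the chronic phase, beside 54.3%, 65.1% and 64.9% with TMM. The median of the lysosomal genes, taken relative to that of all genes, was 0.07, 0.38 and 0.41 with library totals and 0.07, 0.37 and 0.41 with TMM, in the same order. Without that shift taken off, 5 rose and 19 fell in acute mice, beside 12.8% and 43.3% of all genes. In remission mice 7 rose and 2 fell, beside 4.03% and 8.33%, and in chronic mice 9 rose and 3 fell, beside 5.60% and 20.2%. Of the calls against control described below, 4 in the acute phase, 9 in remission and 11 in the chronic phase ended with library totals. These were Lamp1, Lamp2, Man2b1 and Pld3 in the acute phase, and Lamp1, Slc17a5, Gm2a, Psap, Gusb, Idua, Man2b1, Manba and Tpp1 in remission. In the chronic phase they were Lamp1, Lamp2, Slc17a5, Glb1, Psap, Man2b1, Manba, Fuca1, Tpp1, Ppt1 and Dnase2a. With only the 6 libraries of the groups compared in the fit, and so without acute libraries, 20 rose and 2 fell in remission, and 20 rose and 1 fell in chronic mice. Rises and falls below are changes relative to the median gene.

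**Figure D1:**
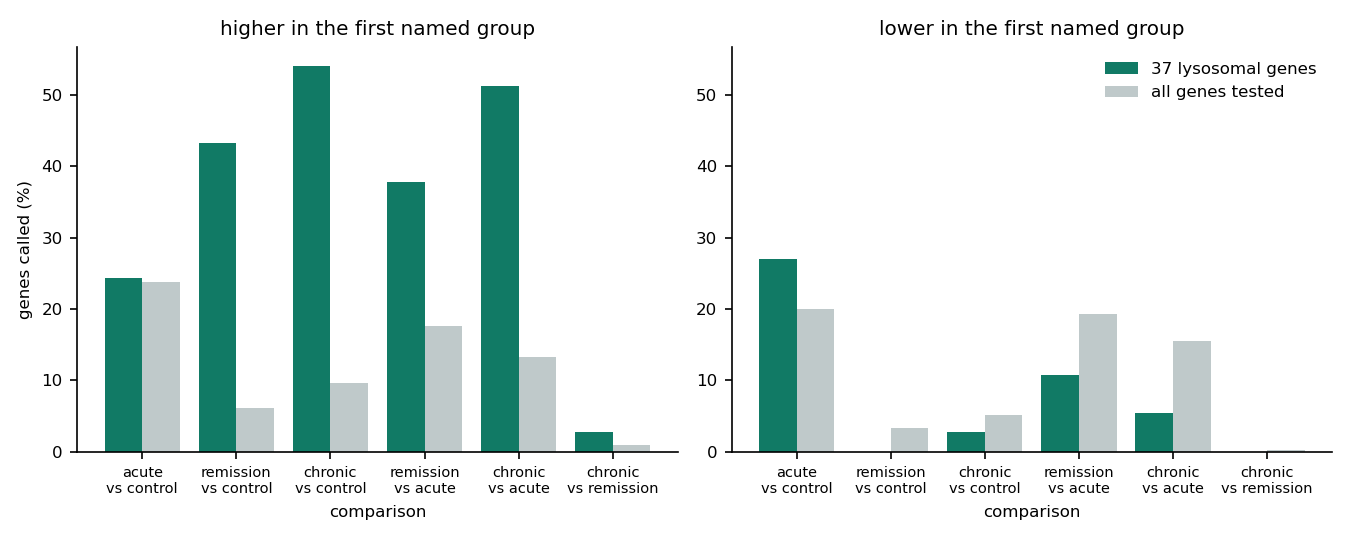
Percent of genes called at an adjusted p under 0.05 in each of 6 comparisons, for the 37 lysosomal genes (green bars) and all genes tested (grey bars), higher on the left and lower on the right in the group named first. In chronic against control mice 54.1% of the lysosomal genes and 9.57% of all genes rose, whereas in acute against control mice the shares that rose were 24.3% and 23.7%. With library totals in place of TMM factors, 9 of the 37 and 5.60% of all genes rose in chronic mice, and 5 of the 37 and 12.8% of all genes rose in acute mice.

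Summed over the 37 genes, the level was 5478, 5767 and 6140.1 CPM in control libraries, 6283, 6787 and 8269 in acute libraries, 7461, 7220.4 and 7282 in remission libraries and 8631, 7461 and 8356 in chronic libraries. After TMM scaling, all 9 libraries of the disease phases lay above the 3 control libraries. TMM factors were 1.13 to 1.41 in control libraries and 0.812 to 0.859 in acute libraries. Without these factors, the sums of no phase lay wholly above those of control libraries. Means stand with the SD of 3 mice throughout. Psap alone gave 2917 ± 514 CPM in acute mice and 1361 ± 110.1 CPM in control mice (SD, n = 3 each). Without Psap the sum was 4196 ± 525 CPM in acute mice, 5298 ± 188 in remission mice, 5887 ± 523 in chronic mice and 4434 ± 226 in control mice (SD, n = 3 each), and the acute libraries then overlapped the control libraries.

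**Figure D2:**
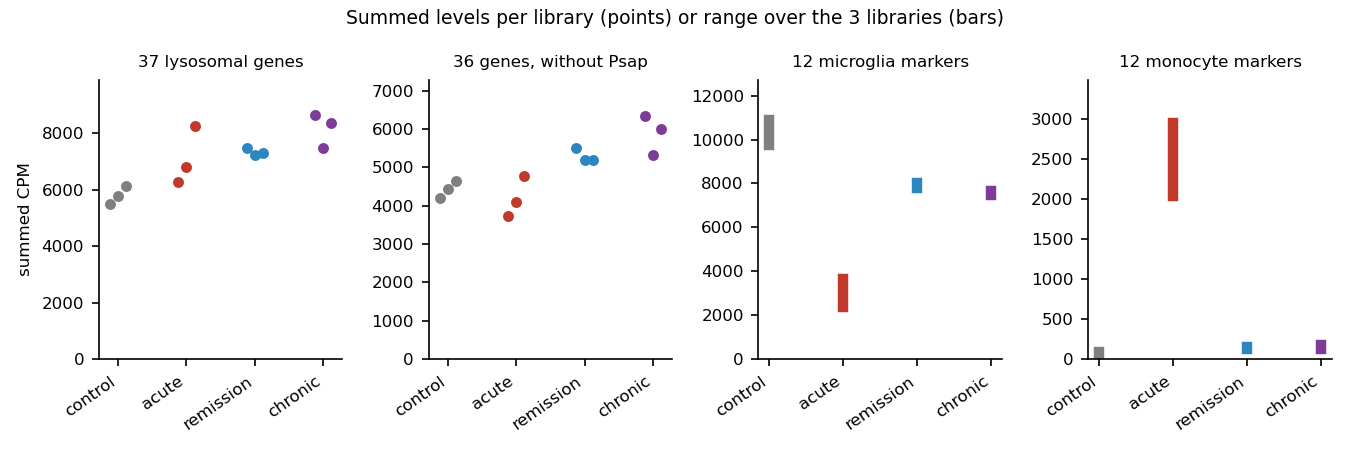
Summed CPM by group of the 37 lysosomal genes, of 36 without Psap (1 point per library), and of 12 microglia and 12 monocyte markers (bars span the 3 libraries of a group). After TMM scaling, remission and chronic libraries lie above control libraries in both lysosomal sums, an order that depends on that scaling. Acute libraries, at 2033 to 2955 CPM, hold the high monocyte sums.

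Against control mice, 8 of the 37 genes rose in all 3 phases (Lamp1, Gla, Gm2a, Psap, Galns, Man2b1, Grn and Pld3). A further 6 (Slc17a5, Gusb, Naglu, Gaa, Manba and Dnase2a) rose in remission and chronic mice and passed in neither direction in acute mice. Another 7 (Sort1, Hexa, Arsa, Smpd1, Aga, Pla2g15 and Lgmn) fell in acute mice and passed in neither direction later. Tpp1 and Glb1 fell in acute mice, and Tpp1 then rose in remission and chronic mice and Glb1 in chronic mice. Arsb fell in acute and chronic mice, Lamp2 rose in acute and chronic mice, Idua rose in remission mice, and Galc, Fuca1 and Ppt1 rose in chronic mice. The last 8 (Scarb2, Tmem106b, Cln3, Ctns, Asah1, Sgsh, Ids and Lipa) passed in no comparison with control mice. All 3 phases share the same control mice, so their calls are not independent of each other. The share of all genes tested with each of these patterns was not counted, so the patterns only list where each gene passed. The reads keep no strand, and exons of 13 of the 37 genes (Lamp1, Cln3, Sort1, Hexa, Glb1, Galc, Arsa, Sgsh, Idua, Arsb, Ppt1, Grn and Dnase2a) overlap those of another gene, so reads there cannot be told apart and these values are uncertain to that extent.

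**Figure D3:**
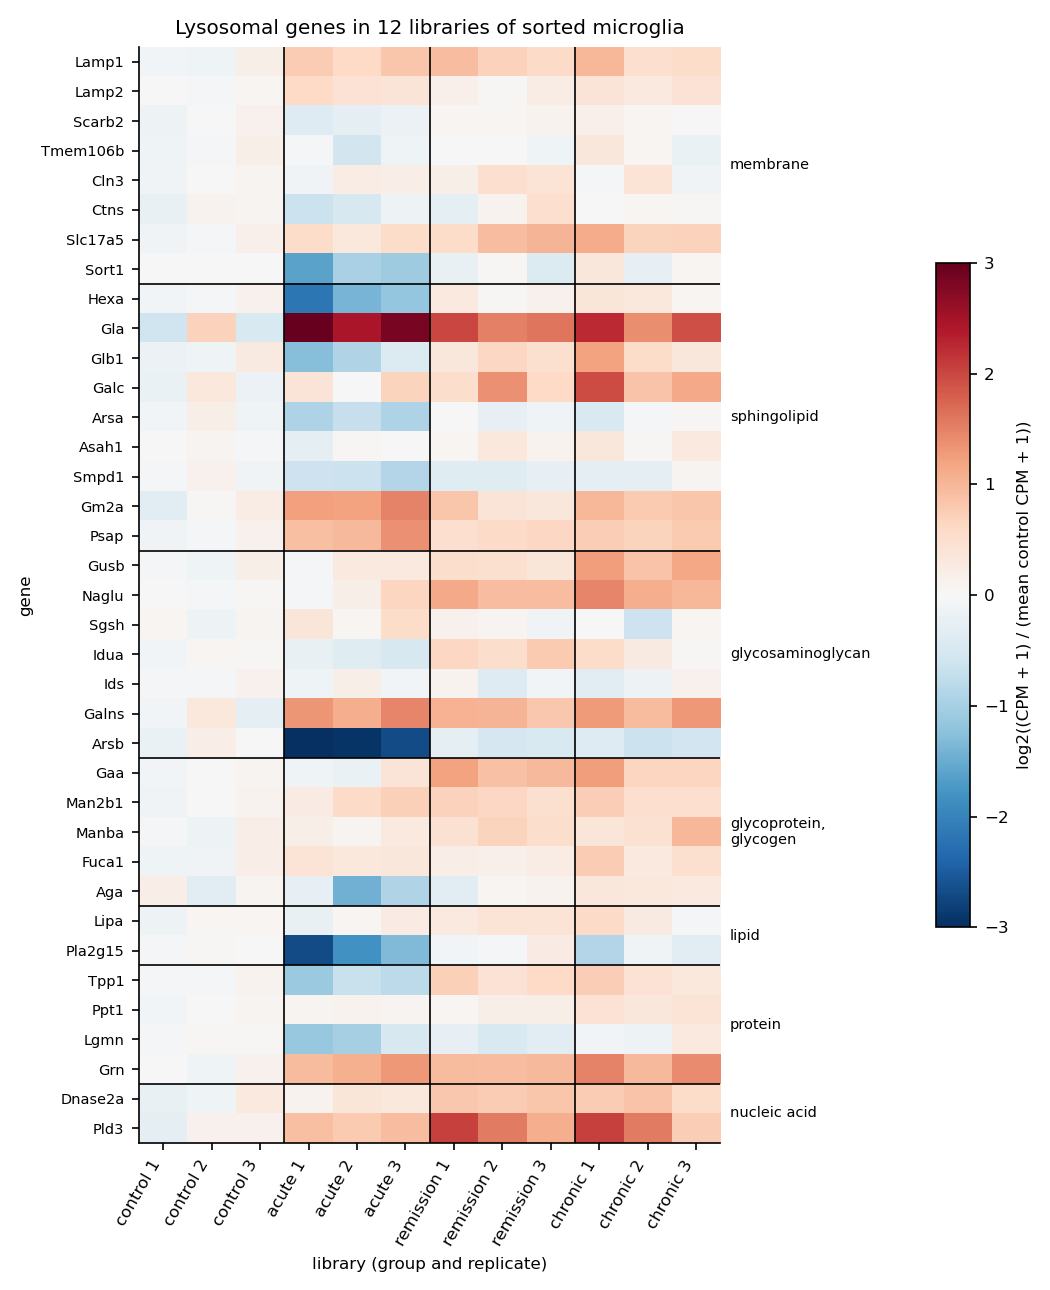
The 37 lysosomal genes (rows, by role) in the 12 libraries (columns, by group), coloured by log2 of CPM plus 1 over the mean control CPM plus 1, from blue (lower) to red (higher), with the scale ending at 3 in either direction. Gla is red and Arsb dark blue in all 3 acute libraries, and Gusb, Naglu, Gaa and Pld3 are red in all remission and chronic libraries.

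Counts by role below stand beside the shares of all genes. These were 23.7% higher and 20% lower in acute, 6.06% and 3.25% in remission, and 9.57% and 5.17% in chronic mice. With library totals they were 12.8% and 43.3%, 4.03% and 8.33%, and 5.60% and 20.2%. Of the 8 genes for membrane proteins, transporters and sorting receptors, 2 rose and 1 fell in acute, 2 rose in remission and 3 rose in chronic mice. The acute shares, 25% and 12.5%, were near or below those of all genes. With library totals 4 fell in the acute phase and none of the 8 was called in remission or in the chronic phase. Lamp1 (ENSMUSG00000031447, chromosome 8 from 13159161 to 13175338 of GRCm38) encodes an abundant glycoprotein of the lysosomal membrane. Lamp1 had 177, 171 and 211 CPM in control libraries, 316, 282 and 335 in acute libraries, 355, 302 and 280.2 in remission libraries and 376, 265 and 273 in chronic libraries. Every library of the 3 disease phases lay above every control library, with log2 fold changes (± SE) of 0.74 ± 0.15 (adjusted p = 3.70e-04) in the acute phase, 0.75 ± 0.15 (adjusted p = 0.00169) in remission and 0.71 ± 0.15 (adjusted p = 0.0019) in the chronic phase. Lamp2 (ENSMUSG00000016534, chromosome X from 38401357 to 38456454), which encodes its companion and the receptor of chaperone-mediated autophagy, moved less. Lamp2 had 168, 159 and 173 CPM in control libraries, 251, 225 and 219 in acute libraries, 184, 172 and 194 in remission libraries and 216, 203 and 225 in chronic libraries. Acute and chronic libraries lay above all control libraries and remission libraries overlapped them, with 0.48 ± 0.11 (adjusted p = 0.00188) in acute and 0.37 ± 0.11 (adjusted p = 0.0317) in chronic mice. The acute fold of Lamp2 turned to -0.081 with library totals, and the chronic call ended without control replicates 1, 2 or 3 or chronic replicates 1 or 3 (adjusted p = 0.0608 to 0.136).

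Slc17a5 (ENSMUSG00000049624, chromosome 9 from 78536488 to 78588041) encodes sialin, which exports sialic acid from the lysosome. Slc17a5 had 7.97, 8.24 and 9.71 CPM in control libraries, 13.2, 10.9 and 13.04 in acute libraries, 13.1, 17.4 and 18.6 in remission libraries and 19.7, 14.4 and 14.5 in chronic libraries. All libraries of the 3 phases lay above the control libraries, with 0.92 ± 0.21 (adjusted p = 0.00725) in remission and 0.91 ± 0.21 (adjusted p = 0.00537) in chronic mice, and the acute fold of 0.53 ± 0.22 (adjusted p = 0.0622) did not pass. Sort1 (ENSMUSG00000068747, chromosome 3 from 108284082 to 108361511) encodes sortilin, a sorting receptor that binds progranulin. Sort1 had 191, 192 and 188 CPM in control libraries, 62.3, 96.2 and 91.00 in acute libraries, 164, 196 and 142 in remission libraries and 239, 161 and 199 in chronic libraries. Acute libraries lay below all others, at -1.19 ± 0.17 (adjusted p = 1.11e-05) against control mice, and the remission and chronic folds were -0.18 and 0.07.

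The remaining 4 membrane genes passed in no comparison with control mice. Scarb2, whose product carries glucocerebrosidase to the lysosome, stood at 179 ± 16.8 CPM in control mice, 148 ± 10.9 in acute mice, 189 ± 3.69 in remission mice and 188 ± 11.2 in chronic mice (SD, n = 3 each). Tmem106b stood at 34.9 ± 6.4 to 43.2 ± 8.18 CPM across the groups and Ctns, the cystine exporter, at 18.5 ± 3.42 to 27.8 ± 7.72 CPM. Cln3, the gene of juvenile Batten disease in humans, had a remission fold of 0.38 ± 0.16 (adjusted p = 0.15), its largest against control.

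Of the 9 genes of sphingolipid degradation, 3 rose and 4 fell in acute mice, 3 rose in remission and 5 rose in chronic mice. With library totals 3 rose and 5 fell in the acute phase, 1 rose in remission and 3 rose in the chronic phase. Gla (ENSMUSG00000031266, chromosome X from 134588149 to 134601125) encodes alpha-galactosidase A, which removes the terminal galactose of globotriaosylceramide and is lost in Fabry disease. Gla had 1.28, 4.56 and 1.51 CPM in control libraries, 28.5, 17.9 and 24.01 in acute libraries, 12.7, 8.8 and 9.56 in remission libraries and 15.2, 8.1 and 12.2 in chronic libraries. No library of a disease phase overlapped a control library, and acute libraries were the highest. The folds were 3.25 ± 0.37 (adjusted p = 1.56e-06) in the acute phase, 2.08 ± 0.39 (adjusted p = 0.0015) in remission and 2.26 ± 0.39 (adjusted p = 4.79e-04) in the chronic phase, the largest rises among the 37 genes in each phase. Gm2a (ENSMUSG00000000594, chromosome 11 from 55098115 to 55113029) encodes the GM2 activator, which lifts gangliosides out of the membrane for hexosaminidase A. Gm2a had 47.9, 61.9 and 70.1 CPM in control libraries, 142, 139 and 169.8 in acute libraries, 107, 79.01 and 76.5 in remission libraries and 120.3, 104 and 108 in chronic libraries. Its folds were 1.33 ± 0.16 (adjusted p = 8.28e-07) in the acute phase, 0.55 ± 0.16 (adjusted p = 0.0275) in remission and 0.89 ± 0.16 (adjusted p = 4.02e-04) in the chronic phase, with no overlap with control libraries, and the remission call ended without control replicates 1 or 2 or remission replicate 1 (adjusted p = 0.0796 to 0.189).

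Psap, which encodes the precursor of the saposins that activate sphingolipid hydrolases, had the highest level per length of the 37 genes. It stood at 1361 ± 110.1 CPM in control mice, 2917 ± 514 in acute mice, 2024 ± 72.1 in remission mice and 2262 ± 105 in chronic mice (SD, n = 3 each). Its folds were 1.10 in the acute phase, 0.57 in remission and 0.73 in the chronic phase, with adjusted p of 2.32e-06, 0.01 and 8.75e-04. The remission call of Psap ended without control replicates 1 or 2 (adjusted p = 0.0545 to 0.0576). Galc (ENSMUSG00000021003, chromosome 12 from 98202294 to 98259459) encodes galactosylceramidase, the enzyme that degrades the main galactolipid of myelin and is lost in Krabbe disease. Galc had 13.7, 19.6 and 13.8 CPM in control libraries, 20.8, 15.7 and 25.5 in acute libraries, 23.3, 42.3 and 24.4 in remission libraries and 63.3, 28.99 and 35.7 in chronic libraries. Remission and chronic libraries lay above all control libraries, at 0.94 ± 0.32 (adjusted p = 0.0969), which did not pass, and 1.44 ± 0.32 (adjusted p = 0.0081). The chronic call ended without control replicate 1 (adjusted p = 0.0512). Chronic replicate 1 was the highest, and without it the call held.

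Hexa (ENSMUSG00000025232, chromosome 9 from 59539540 to 59565109) encodes the alpha subunit of hexosaminidase A, lost in Tay-Sachs disease. Hexa had 181, 181 and 209 CPM in control libraries, 41.5, 71.9 and 84.8 in acute libraries, 233, 194 and 208 in remission libraries and 244, 236 and 199 in chronic libraries. Acute libraries lay below every other library, at -1.53 ± 0.19 (adjusted p = 3.89e-06) against control, and remission and chronic libraries overlapped control libraries. Glb1 (ENSMUSG00000045594, chromosome 9 from 114401076 to 114474898) encodes beta-galactosidase, which cleaves GM1 ganglioside. Glb1 had 16.2, 16.6 and 22.4 CPM in control libraries, 7.004, 9.32 and 13.6 in acute libraries, 23.4, 29.1 and 26.3 in remission libraries and 43.8, 27.5 and 23.5 in chronic libraries. Acute libraries lay below, and remission and chronic libraries above, all control libraries, at -0.88 ± 0.26 (adjusted p = 0.0101), 0.52 ± 0.23 (adjusted p = 0.196), which did not pass, and 0.79 ± 0.23 (adjusted p = 0.0261). The acute call ended without acute replicate 1 (adjusted p = 0.0659) and the chronic call without control replicates 1 or 2 or chronic replicate 1 (adjusted p = 0.121 to 0.182).

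Arsa (ENSMUSG00000022620, chromosome 15 from 89472476 to 89477425) encodes arylsulfatase A, which desulfates the myelin lipid sulfatide. Arsa had 22.9, 27.5 and 22.01 CPM in control libraries, 12.2, 14.7 and 12.2 in acute libraries, 24.5, 20.1 and 22.05 in remission libraries and 17.3, 23.2 and 24.7 in chronic libraries. Acute libraries lay below all others, at -0.89 ± 0.19 (adjusted p = 7.16e-04) against control, and remission and chronic libraries overlapped control libraries. Smpd1, the acid sphingomyelinase, fell likewise to 10.7 ± 1.05 CPM in acute mice, against 18.1 ± 1.52 CPM in control mice (log2 fold change -0.76, adjusted p = 0.00342). Asah1, the acid ceramidase, stood between 112 ± 13.7 and 139 ± 15.3 CPM in the 4 groups and passed nowhere.

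**Figure D4:**
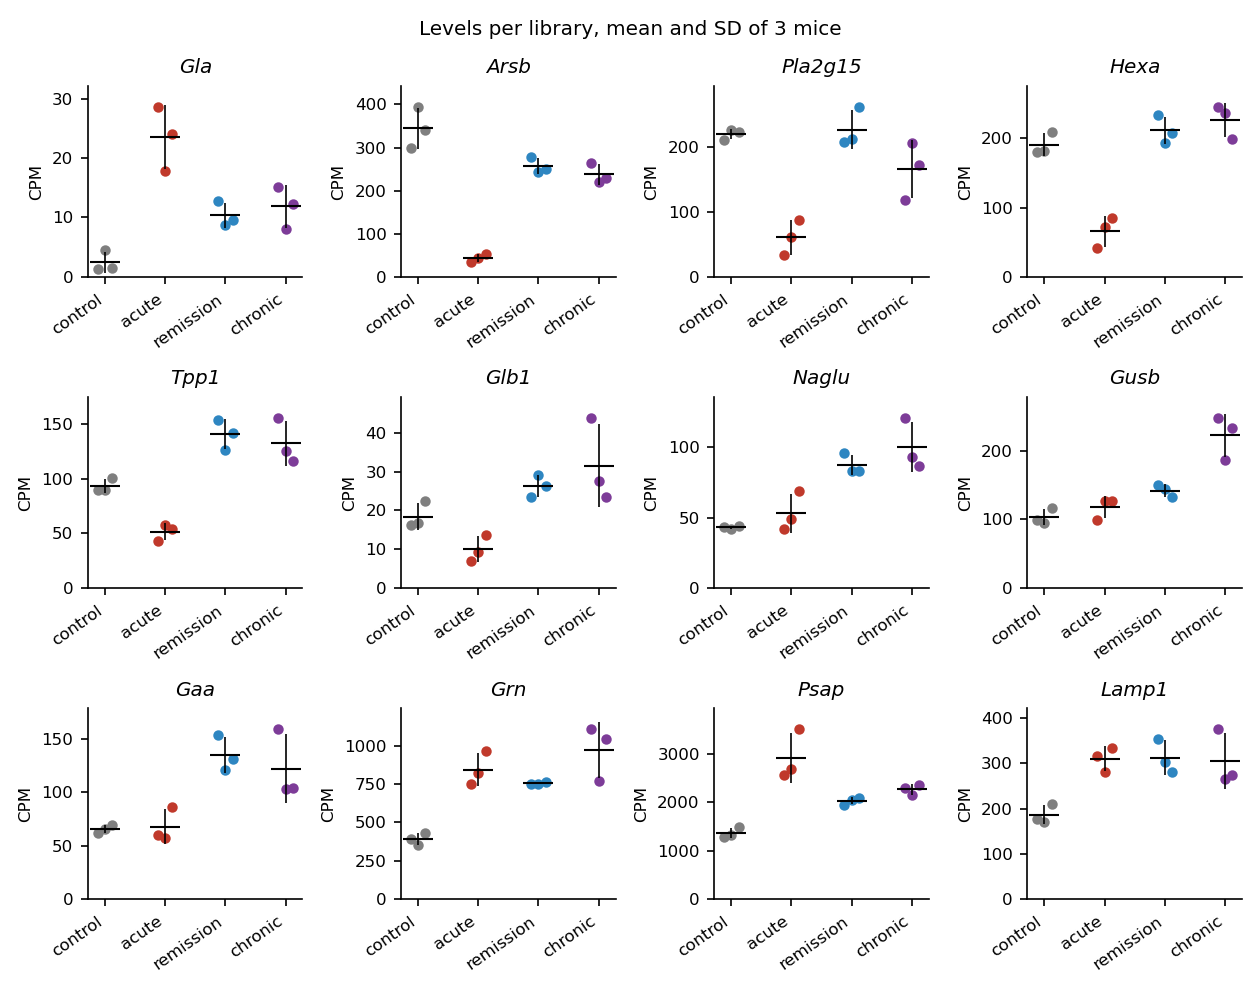
CPM after TMM scaling of 12 of the 37 genes in each library (points), with the mean (dash) and SD (line) of 3 mice per group. Arsb, Pla2g15 and Hexa are low in all 3 acute libraries, Gla and Psap are highest in acute libraries, and Naglu, Gusb and Gaa are highest in remission or chronic libraries.

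Of the 7 genes of glycosaminoglycan degradation, 1 rose and 1 fell in acute, 4 rose in remission, and 3 rose and 1 fell in chronic mice. The acute shares, 14.3% each, were below the 23.7% and 20% of all genes. With library totals 1 rose and 3 fell in the acute phase, 2 rose and 1 fell in remission, and 3 rose and 2 fell in the chronic phase. Arsb (ENSMUSG00000042082, chromosome 13 from 93771630 to 93943016) encodes arylsulfatase B, which desulfates dermatan and chondroitin sulfate. Arsb had 299, 394 and 341 CPM in control libraries, 34.5, 44.2 and 52.8 in acute libraries, 279, 244 and 251 in remission libraries and 265, 219 and 229.8 in chronic libraries. The acute fold of -2.98 ± 0.16 (adjusted p = 1.37e-11) was the largest fall of the 37 genes in any comparison with control. Remission and chronic libraries also lay below all control libraries, at -0.42 ± 0.14 (adjusted p = 0.0766), which did not pass, and -0.53 ± 0.14 (adjusted p = 0.0139). The chronic call ended without chronic replicate 2 or control replicate 2 (adjusted p = 0.0595 to 0.113).

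Galns (ENSMUSG00000015027, chromosome 8 from 122578242 to 122611463) encodes the sulfatase of keratan sulfate and chondroitin 6-sulfate. Galns had 8.11, 11.04 and 6.91 CPM in control libraries, 23.3, 19.4 and 25.8 in acute libraries, 19.01, 18.7 and 15.9 in remission libraries and 22.5, 17.8 and 22.7 in chronic libraries. All libraries of the 3 phases lay above control libraries, at 1.39 ± 0.21 (adjusted p = 1.72e-05) in the acute phase, 1.04 ± 0.21 (adjusted p = 0.00193) in remission and 1.26 ± 0.21 (adjusted p = 1.93e-04) in the chronic phase. Naglu (ENSMUSG00000001751, chromosome 11 from 101070012 to 101077672) encodes an enzyme of heparan sulfate degradation, lost in Sanfilippo syndrome type B. Naglu had 43.5, 42.1 and 44.2 CPM in control libraries, 41.8, 49.3 and 68.8 in acute libraries, 95.98, 83.03 and 83.4 in remission libraries and 121, 93.1 and 86.97 in chronic libraries. Acute libraries overlapped control libraries, whereas remission and chronic libraries did not, at 1.02 ± 0.16 (adjusted p = 2.24e-04) and 1.21 ± 0.16 (adjusted p = 2.01e-05).

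Gusb (ENSMUSG00000025534, chromosome 5 from 129989011 to 130003049) encodes beta-glucuronidase. Gusb had 98.9, 94.5 and 116 CPM in control libraries, 99.6, 127 and 126 in acute libraries, 149.7, 144 and 132 in remission libraries and 247, 187 and 233 in chronic libraries. Its folds were 0.46 ± 0.14 (adjusted p = 0.0356) in remission and 1.11 ± 0.14 (adjusted p = 8.20e-06) in chronic mice, with no overlap with control libraries in either. The remission call ended without control replicates 1 or 2 or remission replicates 1, 2 or 3 (adjusted p = 0.0507 to 0.167). Idua, alpha-L-iduronidase, passed in remission mice at 31.1 ± 2.93 CPM, against 19.5 ± 1.03 CPM in control mice (log2 fold change 0.67, adjusted p = 0.0122), and this call ended without control replicate 1 or remission replicate 3 (adjusted p = 0.0565 to 0.0685). Ids and Sgsh, a sulfatase and a sulfamidase of heparan sulfate, had folds of -0.11 to -0.01 and -0.18 to 0.36 against control, and neither passed.

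Of the 5 genes of glycoprotein and glycogen degradation, 1 rose and 1 fell in acute, 3 rose in remission and 4 rose in chronic mice. The acute shares, 20% each, were near the 23.7% and 20% of all genes. With library totals 2 fell in the acute phase, and 1 rose in remission and 1 in the chronic phase. Gaa (ENSMUSG00000025579, chromosome 11 from 119267887 to 119285454) encodes acid alpha-glucosidase, which degrades glycogen in the lysosome and is lost in Pompe disease. Gaa had 61.9, 65.9 and 69.5 CPM in control libraries, 59.7, 56.7 and 86.3 in acute libraries, 154, 121 and 131 in remission libraries and 159, 103 and 104 in chronic libraries. Acute libraries overlapped control libraries, and remission and chronic libraries lay above them, at 1.04 ± 0.18 (adjusted p = 6.27e-04) and 0.89 ± 0.18 (adjusted p = 0.00165). Man2b1 (ENSMUSG00000005142, chromosome 8 from 85083270 to 85098282) encodes the lysosomal alpha-mannosidase. Man2b1 had 423, 457 and 491 CPM in control libraries, 542, 676 and 751 in acute libraries, 735, 701 and 637 in remission libraries and 759.5, 646 and 651 in chronic libraries. No library of a disease phase overlapped a control library, at 0.52 ± 0.13 (adjusted p = 0.00352) in the acute phase, 0.60 ± 0.13 (adjusted p = 0.00565) in remission and 0.59 ± 0.13 (adjusted p = 0.00458) in the chronic phase, and the acute fold turned to -0.028 with library totals.

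Manba (ENSMUSG00000028164, chromosome 3 from 135485611 to 135571404) encodes beta-mannosidase. Manba had 33.4, 31.2 and 40.6 CPM in control libraries, 39.4, 37.03 and 43.3 in acute libraries, 48.7, 55.9 and 50.7 in remission libraries and 45.4, 48.8 and 70.9 in chronic libraries. It rose by 0.57 ± 0.16 (adjusted p = 0.0299) in remission and 0.65 ± 0.16 (adjusted p = 0.00842) in chronic mice, without overlap with control libraries. The remission call ended without control replicates 1 or 2 or remission replicates 2 or 3 (adjusted p = 0.0632 to 0.14) and the chronic call without control replicate 2 or chronic replicate 3 (adjusted p = 0.0578 to 0.0776). Fuca1, the alpha-fucosidase, rose to 43.3 ± 7.31 CPM in chronic mice, against 29.9 ± 4.02 CPM in control mice (adjusted p = 0.0165). The call ended without control replicates 1 or 2 or chronic replicate 1 (adjusted p = 0.085 to 0.102). Aga, which splits the bond between asparagine and the glycan, was at 3.97 ± 2.08 CPM in acute and 7.53 ± 1.57 CPM in control mice, with overlapping libraries (log2 fold change -0.91, adjusted p = 0.0323). Its call ended without acute replicates 2 or 3 or control replicates 1 or 3 (adjusted p = 0.0683 to 0.166), and DESeq2 gave it an adjusted p of 0.0617.

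Of the 2 lipid hydrolases 1 fell in acute mice, and with library totals both fell there and 1 fell in the chronic phase. Pla2g15 (ENSMUSG00000031903, chromosome 8 from 106150399 to 106164715), a lysosomal phospholipase A of macrophages, fell in acute mice. Pla2g15 had 210.1, 226 and 222 CPM in control libraries, 33.5, 61.5 and 87.1 in acute libraries, 207, 211 and 260.3 in remission libraries and 118, 205 and 172 in chronic libraries. Acute libraries lay below all others, at -1.86 ± 0.29 (adjusted p = 3.35e-04), and chronic libraries also lay below control libraries, at -0.41 ± 0.28 (adjusted p = 0.411), which did not pass. Lipa, the acid lipase of cholesteryl esters and triglycerides, stood at 44.4 ± 3.69 CPM in control mice, 45.9 ± 7.62 in acute mice, 57.8 ± 2.46 in remission mice and 54.5 ± 11.4 in chronic mice (SD, n = 3 each) and passed in no comparison.

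Of the 4 genes of protein processing and progranulin, 1 rose and 2 fell in acute, 2 rose in remission and 3 rose in chronic mice. With library totals 1 rose and 3 fell in the acute phase, 1 rose and 1 fell in remission, and 1 rose in the chronic phase. Grn (ENSMUSG00000034708, chromosome 11 from 102430315 to 102437048) encodes progranulin, a secreted protein that is cut into granulins in the lysosome and whose loss causes frontotemporal dementia or a storage disease in humans. Grn had 391, 355 and 428 CPM in control libraries, 751, 819 and 962 in acute libraries, 752, 749.5 and 764 in remission libraries and 1107, 766 and 1046 in chronic libraries. All libraries of the 3 phases lay above control libraries, at 1.11 ± 0.14 (adjusted p = 3.23e-06) in the acute phase, 0.95 ± 0.14 (adjusted p = 1.43e-04) in remission and 1.31 ± 0.15 (adjusted p = 2.15e-06) in the chronic phase. Tpp1 (ENSMUSG00000030894, chromosome 7 from 105744811 to 105752235) encodes tripeptidyl peptidase 1, which clips tripeptides from the ends of proteins and is lost in late infantile neuronal ceroid lipofuscinosis. Tpp1 had 89.5, 89.5 and 100.3 CPM in control libraries, 42.8, 58.1 and 53.7 in acute libraries, 154, 127 and 142 in remission libraries and 155, 126 and 116 in chronic libraries. Acute libraries lay below, and remission and chronic libraries above, every control library, at -0.85 ± 0.14 (adjusted p = 6.81e-05), 0.60 ± 0.14 (adjusted p = 0.00718) and 0.51 ± 0.14 (adjusted p = 0.0152). The chronic call ended without control replicates 1 or 2 or chronic replicate 1 (adjusted p = 0.0739 to 0.0842).

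Lgmn (ENSMUSG00000021190, chromosome 12 from 102394084 to 102439813) encodes legumain, an asparaginyl endopeptidase that matures other lysosomal proteases. Lgmn had 1044, 1103 and 1105 CPM in control libraries, 491, 546 and 775 in acute libraries, 907, 792 and 863 in remission libraries and 1019, 977 and 1334 in chronic libraries. It fell in acute mice by 0.84 ± 0.16 (adjusted p = 2.13e-04) on the log2 scale, with no overlap between acute and control libraries, and remission libraries also lay below control libraries, at -0.34 ± 0.16 (adjusted p = 0.205), which did not pass. Ppt1 (ENSMUSG00000028657, chromosome 4 from 122836242 to 122859175), the palmitoyl-protein thioesterase, passed in chronic mice. Ppt1 had 83.1, 87.4 and 92.8 CPM in control libraries, 93.1, 94.05 and 92.8 in acute libraries, 91.00, 98.5 and 99.3 in remission libraries and 119.6, 111 and 116 in chronic libraries. Chronic libraries lay above all others, at 0.40 ± 0.11 (adjusted p = 0.0168) against control, and the call ended without control replicates 1 or 2 (adjusted p = 0.0654 to 0.0877).

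Both genes of nucleic acid degradation rose in remission and chronic mice, and with library totals both rose in remission and 1 in the chronic phase. Pld3 (ENSMUSG00000003363, chromosome 7 from 27532000 to 27553218) encodes a lysosomal exonuclease of single-stranded nucleic acids. Pld3 had 22.05, 29.4 and 29.3 CPM in control libraries, 50.8, 47.2 and 51.9 in acute libraries, 115, 80.9 and 58.4 in remission libraries and 115, 80.7 and 45.7 in chronic libraries. The folds were 1.66 ± 0.32 (adjusted p = 0.00789) in remission and 1.58 ± 0.32 (adjusted p = 0.00729) in chronic mice, and the libraries of each phase spread widely but none overlapped control. In acute mice the fold was 0.90 ± 0.33 (adjusted p = 0.0487), and this ended without acute replicates 1, 2 or 3, control replicates 1, 2 or 3, remission replicate 2 or chronic replicate 2 (adjusted p = 0.0716 to 0.166). Dnase2a (ENSMUSG00000003812, chromosome 8 from 84908560 to 84922915) encodes the acid endonuclease that degrades DNA of engulfed cells. Dnase2a had 20.2, 21.9 and 29.6 CPM in control libraries, 25.7, 31.2 and 30.2 in acute libraries, 42.3, 41.3 and 43.6 in remission libraries and 40.9, 43.8 and 35.2 in chronic libraries. Remission and chronic libraries lay above all control libraries, at 0.84 ± 0.16 (adjusted p = 0.00124) and 0.75 ± 0.16 (adjusted p = 0.00217).

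**Figure D5:**
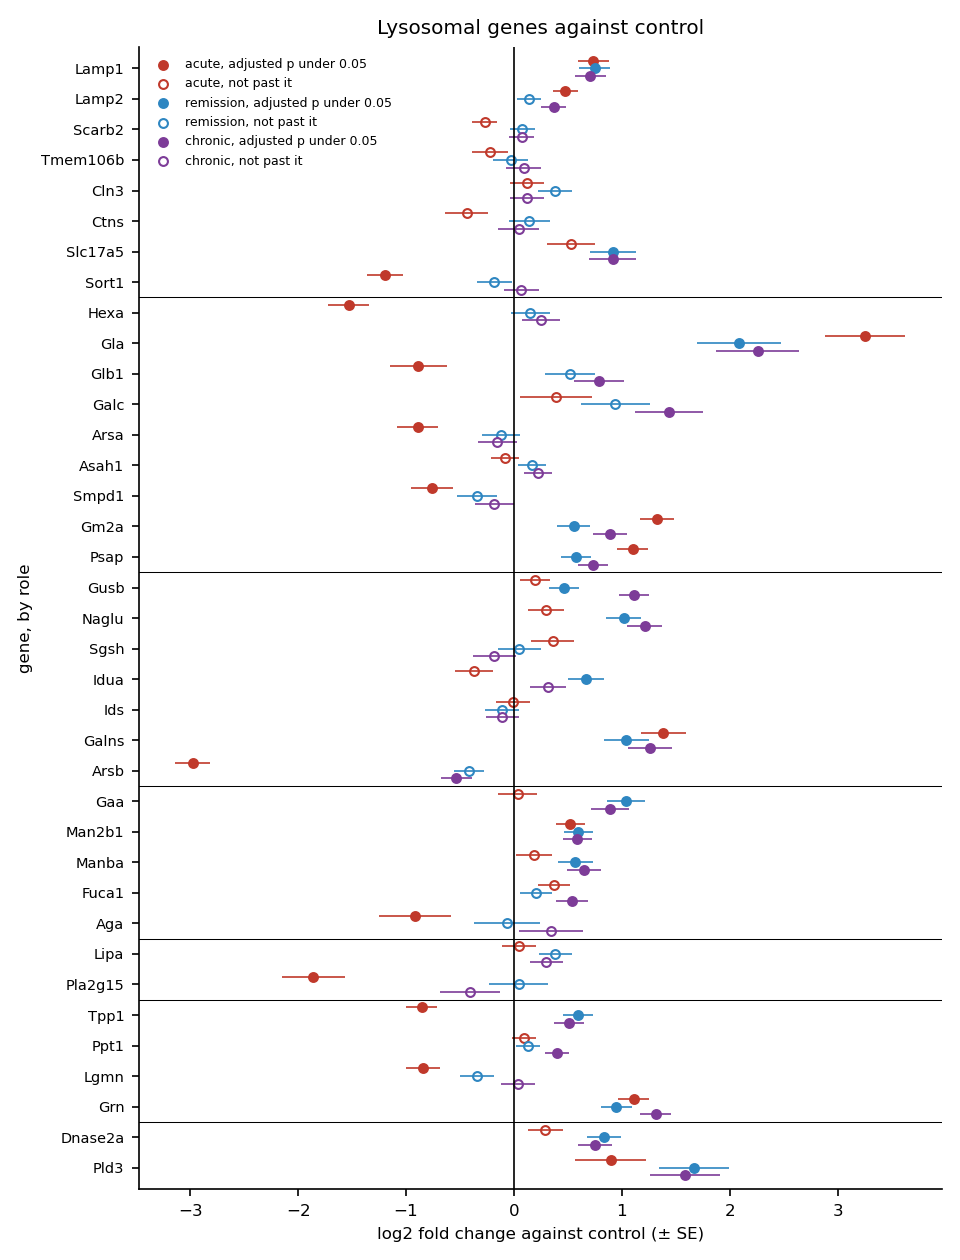
Log2 fold change (± SE) of each of the 37 genes in acute (red), remission (blue) and chronic mice (purple) against control, with filled points past an adjusted p of 0.05. Gla reaches 3.25 and Arsb -2.98 in acute mice, and Tpp1 and Glb1 lie left of 0 in acute and right of 0 in chronic mice. The acute folds of Lamp2 and Man2b1 turn below 0 with library totals.

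The phases were also compared with each other. In remission against acute mice, 14 of the 37 genes were higher and 4 lower, beside a background of 17.6% and 19.4% of all genes, and in chronic against acute mice 19 were higher and 2 lower, beside 13.3% and 15.5%. Of these, Arsb differed most, at 2.56 ± 0.16 (adjusted p = 3.49e-10) in remission and 2.44 ± 0.16 (adjusted p = 8.73e-10) in chronic mice over acute mice. Pla2g15 had 1.90 ± 0.29 (adjusted p = 4.14e-04) and 1.45 ± 0.29 (adjusted p = 0.00336) in the same order, and Hexa had 1.68 ± 0.19 (adjusted p = 2.53e-06) and 1.78 ± 0.19 (adjusted p = 2.06e-06). Tpp1 was higher by 1.45 ± 0.15 (adjusted p = 2.32e-07) in remission and by 1.36 ± 0.15 (adjusted p = 7.01e-07) in chronic than in acute mice. Gla and Gm2a were lower in both, Gla at -1.17 and -1.0 and Gm2a at -0.78 and -0.44, and the chronic call of Gla ended without acute replicates 1 or 3 or chronic replicate 2 (adjusted p = 0.061 to 0.119) and that of Gm2a without acute replicates 1 or 3, chronic replicates 2 or 3 or control replicate 2 (adjusted p = 0.0543 to 0.143). The number lower in chronic than in acute mice was 0 with library totals and 4 with totals that leave out the top features and mitochondrial genes. The number higher, 19 in the main fit, was 15 with only the groups compared and 13 with the number in the sample titles as a covariate. With that covariate the median of the lysosomal genes relative to that of all genes was 0.26 in chronic against acute mice, beside 0.46 in the main fit. These comparisons share their acute mice, whose monocyte markers are given above.

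In chronic against remission mice, 1 of the 37 genes was higher and 0 lower, beside 0.941% and 0.263% of all genes in edgeR's test. At an unadjusted p under 0.05, 6 were higher and 1 lower, and the share of all genes at that threshold was not counted. DESeq2 called 1 higher and 0 lower, beside 1.71% and 0.637% of all genes it tested. The gene called was Gusb, with 247, 187 and 233 CPM in chronic and 149.7, 144 and 132 CPM in remission libraries. Its libraries did not overlap, at 0.65 ± 0.14 (adjusted p = 0.024). The call ended without remission replicates 1 or 3 or chronic replicate 3 (adjusted p = 0.0543 to 0.117), and it ended with only the 6 libraries of both groups (0.0772).

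Other lysosomal genes were counted from the same fit. Each count stands beside the shares of all genes, which were 23.7% higher and 20% lower in acute, 6.06% and 3.25% in remission, and 9.57% and 5.17% in chronic mice. With library totals those shares were 12.8% and 43.3%, 4.03% and 8.33%, and 5.60% and 20.2%. Of 30 other hydrolases and cofactors tested, 11 rose and 2 fell in acute, 9 rose in remission, and 12 rose and 1 fell in chronic mice (median log2 fold change 0.20, 0.22 and 0.41). Scpep1, a serine carboxypeptidase, rose by 1.73 ± 0.15 in the acute phase, 1.40 ± 0.15 in remission and 1.48 ± 0.15 in the chronic phase. Npc2, a cholesterol carrier, rose by 1.21 ± 0.12 in acute and 0.97 ± 0.12 in chronic mice, and also passed as higher in remission mice. With library totals 5 rose and 11 fell in acute, 8 rose in remission, and 7 rose and 3 fell in chronic mice.

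Of 35 other lysosomal membrane proteins and transporters, 9 rose and 11 fell in acute, 8 rose and 1 fell in remission, and 9 rose and 1 fell in chronic mice (medians -0.03, 0.30 and 0.22). The acute shares were 25.7% higher and 31.4% lower, the first of them near that of all genes. Cd63, a tetraspanin of late endosomes and lysosomes, rose by 2.19 ± 0.16 in the acute phase, 2.95 ± 0.16 in remission and 3.17 ± 0.16 in the chronic phase. Clcn7, the chloride and proton exchanger of lysosomes, rose by 2.35 ± 0.15, 1.20 ± 0.15 and 1.47 ± 0.15 in the same order, and Cd164 fell in each, by 0.83 ± 0.13, 1.23 ± 0.13 and 1.25 ± 0.13. With library totals 7 rose and 20 fell in acute, 4 rose and 1 fell in remission, and 4 rose and 6 fell in chronic mice.

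Of 22 genes that deliver enzymes to the lysosome, 10 rose and 3 fell in acute, and 4 rose in each of remission and chronic mice (medians 0.42, 0.15 and 0.22). Igf2r, the large mannose 6-phosphate receptor, rose by 4.87 ± 0.23 in the acute phase, 2.55 ± 0.25 in remission and 2.28 ± 0.25 in the chronic phase. Gnptab, which makes the mannose 6-phosphate tag, rose by 1.61 ± 0.14, 1.33 ± 0.14 and 1.71 ± 0.14. With library totals 6 rose and 7 fell in acute, 3 rose in remission, and 2 rose and 2 fell in chronic mice.

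Of 18 subunits of the vacuolar ATPase, which acidifies the lysosome, 12 rose and 2 fell in acute, 5 rose in remission and 8 rose in chronic mice (medians 0.71, 0.35 and 0.48). Atp6v1a, the catalytic subunit, rose by 1.48 ± 0.13 in the acute phase, 0.89 ± 0.13 in remission and 0.96 ± 0.13 in the chronic phase. Of 11 cathepsins tested, 5 rose and 3 fell in acute, 5 rose in remission and 6 rose in chronic mice, and Ctsb rose by 0.57 ± 0.16, 1.47 ± 0.17 and 1.62 ± 0.17. With library totals, 5 subunits rose and 5 fell in acute, 2 rose in remission, and 2 rose and 1 fell in chronic mice, and 1 cathepsin rose and 6 fell in acute, 4 rose in remission, and 5 rose and 1 fell in chronic mice.

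Transcription factors of the MiT/TFE family drive many lysosomal genes, and folliculin, its partners and Rag GTPases control their entry into the nucleus. Of 9 such genes, 3 rose and 1 fell in acute, 6 rose in remission and 5 rose in chronic mice. Mitf rose by 1.09 ± 0.18 in remission and 0.67 ± 0.18 in chronic mice. Fnip2, a partner of folliculin, rose by 1.55 ± 0.16 in the acute phase, 1.23 ± 0.16 in remission and 1.02 ± 0.16 in the chronic phase. Tfe3 fell in acute mice by 0.83 ± 0.14, with 52.3 ± 8.85 CPM in acute and 92.8 ± 3.9 CPM in control mice (SD, n = 3 each). With library totals 3 rose and 3 fell in acute, 5 rose and 1 fell in remission, and 1 rose and 2 fell in chronic mice.

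Promoters of the lysosomal genes were searched for CACGTG, the core letters of the motif that MiT/TFE factors bind, and for the longer TCACGTGA that contains it. Each motif reads the same on both strands. RefSeq promoters of GRCm38.p6, running from 250 bases before to 50 after the gene start, were found for 33 of the 37 genes by symbol (not for Asah1, Sort1, Aga and Galns). CACGTG was present in 9 of the 33 (27.3%), in 12.03% of the 8953 tested genes with a promoter and in 8.09% of all 27025 genes with one. TCACGTGA was present in Cln3 and Gla, 2 of 33 (6.06%), against 2.28% of tested genes and 1.12% of all genes. A match is a description of these letters only. The stretches that hold the matches are printed 5′ to 3′ on the strand of the gene, with 20 bases on either side, because they show how the motifs lie in genes that rose and in genes that did not. Capitals mark the motif, and coordinates are on GRCm38.p6.
Gla, chrX:134601174-134601252, minus strand: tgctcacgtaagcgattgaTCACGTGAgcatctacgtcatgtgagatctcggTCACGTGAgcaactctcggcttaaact
Lamp1, chr8:13159080-13159171, plus strand: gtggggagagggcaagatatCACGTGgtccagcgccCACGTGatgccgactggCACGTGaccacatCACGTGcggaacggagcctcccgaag
Naglu, chr11:101070001-101070046, plus strand: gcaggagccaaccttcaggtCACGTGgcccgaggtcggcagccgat
Gaa, chr11:119267803-119267848, plus strand: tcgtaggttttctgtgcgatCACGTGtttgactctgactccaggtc
Glb1, chr9:114401010-114401055, plus strand: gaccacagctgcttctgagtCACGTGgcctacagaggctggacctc
Cln3, chr7:126583332-126583405, minus strand: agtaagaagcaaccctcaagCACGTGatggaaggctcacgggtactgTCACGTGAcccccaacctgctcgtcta
Sgsh, chr11:119355514-119355559, minus strand: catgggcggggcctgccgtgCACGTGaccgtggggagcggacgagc
Arsa, chr15:89477415-89477460, minus strand: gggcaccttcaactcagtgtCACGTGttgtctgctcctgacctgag
Lgmn, chr12:102439116-102439161, minus strand: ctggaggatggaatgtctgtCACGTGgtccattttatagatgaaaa
The promoter of Gla held TCACGTGA at 2 places, starting 227 and 194 bases before the gene start counted from the first base of CACGTG, and that of Lamp1 held CACGTG at 4 places between 61 and 15 bases before it. Of the 9 genes with CACGTG, 4 rose in remission and 5 in chronic mice (Gla, Lamp1, Naglu and Gaa in both and Glb1 in chronic mice), and Arsa, Lgmn and Glb1 fell in acute mice. Of the 24 genes with a promoter and no CACGTG, 11 rose in remission and 14 in chronic mice, and 5 fell in acute mice. In acute mice 2 of the 9 genes and 6 of the 24 genes rose. The median log2 fold change in acute, remission and chronic mice was 0.12, 0.52 and 0.71 in the 9 genes. In the 24 genes it was 0.14, 0.42 and 0.45 in the same order.

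Per length of exon, levels in control mice ran from 0.75 CPM per kb for Gla to 496 CPM per kb for Psap, with Lgmn at 467, Grn at 113 and Hexa at 95.4 CPM per kb. In acute mice the order of Lgmn and Grn was closer, at 259.9 and 243 CPM per kb, and Psap stood at 1063 CPM per kb. The genes lie on 14 chromosomes, with 7 on chromosome 8 and 6 on chromosome 11.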

How the data were processed

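Counts of reads per gene were deposited by the authors for 12 libraries. Per the submitters' processing notes, reads were handled with HISAT2, SAMtools 1.3.1, Picard 2.6.4 and HTSeq 0.6.1 on GRCm38. The HISAT2 version, counting settings and annotation release are not given in the sources used here. Per the labels' protocols, libraries came from random-primed cDNA and a transposase kit, which keeps no strand, and were run together as single reads. The single files equalled the columns of the series table for all 12 libraries. Of 48526 IDs, 48144 were in GENCODE M21, and the other 382 held 0.0208% of counts.

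Genes were filtered with edgeR 4.0.16 (filterByExpr) in R 4.3.3, which left 12545, and scaled by TMM. One model of the 4 groups was fitted to 12 libraries with the robust quasi-likelihood test, and 6 comparisons were adjusted by Benjamini-Hochberg over all genes tested. Levels are CPM after TMM scaling, per library or as mean ± SD of 3 mice, and log2 fold changes stand with their SE. In simulated data for acute against control mice (12063 genes tested), the test found 6% of 1.5-fold, 42% of 2-fold, 74% of 4-fold and 96% of 8-fold changes. Of 114 calls there, 5 were of unchanged genes. In the data themselves 2977 genes rose and 2510 fell in acute mice, so the adjustment was stricter in the simulation. The shares found there therefore do not give how often changes in the lysosomal genes are missed. Depth was 1266782 to 2496096 counts per library outside the top features and mitochondrial genes, and how far depth or the spread between mice limits the precision was not tested.

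The 37 genes, their role groups and the other lists were chosen with earlier results of these data known. Replicate numbers follow the order of the records and pair no mice. Genes named with every library had passed against control without overlap, up to 3 per role group and direction by size of change. Of the other lists, up to 3 genes per direction with the smallest p in each comparison with control could be named. The alternatives tried were library totals, DESeq2's size factors within edgeR, totals without the 6 top features and mitochondrial genes, DESeq2 1.42.0, no filter on low counts, only the groups compared, the number in the sample titles as a covariate, and leaving out each library.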

Additional observations from a re-analysis of the deposited data

Results flagged for a closer look

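Tpp1 and Glb1 changed in opposite directions against control mice in different phases, and the difference between those phases itself passed. Tpp1 fell in acute mice (-0.85) and rose in remission (0.60) and chronic mice (0.51), and its log2 level was higher by 1.45 in remission and by 1.36 in the chronic phase than in the acute phase (adjusted p = 2.32e-07 and 7.01e-07 in edgeR's test, 3 of 3 libraries above all acute libraries in each). Glb1 fell in acute mice (-0.88) and rose in chronic mice (0.79), and was higher by 1.67 in the chronic than in the acute phase (adjusted p = 6.75e-05, 3 of 3 libraries above all acute libraries). With library totals the rises did not pass, at 0.35 (adjusted p = 0.178) for Tpp1 in remission, 0.16 (0.5) for Tpp1 in the chronic phase and 0.45 (0.18) for Glb1 in the chronic phase, whereas the differences from acute mice were 1.76, 1.57 and 1.88 in the same order and passed. The chronic call of Tpp1 also ended without control replicates 1 or 2 or chronic replicate 1 (adjusted p = 0.0739 to 0.0842). For Glb1 the acute call ended without acute replicate 1 (adjusted p = 0.0659) and the chronic call without control replicates 1 or 2 or chronic replicate 1 (adjusted p = 0.121 to 0.182). Both comparisons with control share the same 3 control mice. The test between phases shows that the phases differ, and it cannot show a rise above control. Tpp1 and Glb1 were also flagged because that difference passed, so its passing adds no support. Both results rest on the acute libraries, in which 12 of 12 monocyte markers were higher and 12 of 12 microglia markers lower. The summed monocyte level was 2033 to 2955 CPM over the acute libraries, against 31.5 to 82.9 over the control libraries. The part of these markers in the results was not tested.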

How the results depend on the processing

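No paired analysis was possible because replicate numbers follow the order of the records and pair no mice. Over the fits that left out 1 library, the numbers of the 37 genes higher and lower against control ranged from 8 to 10 and from 9 to 11 in acute (9 and 10 with all), from 11 to 17 and from 0 to 1 in remission (16 and 0), and from 14 to 20 and from 0 to 1 in chronic mice (20 and 1). The fall in chronic mice, of Arsb, ended without chronic replicate 2 or control replicate 2. Remission against acute mice gave 11 to 16 higher and 3 to 4 lower (14 and 4), chronic against acute mice 13 to 20 and 0 to 3 (19 and 2), and chronic against remission mice 0 to 1 higher (1). The number lower in chronic than in acute mice was 1 without acute replicate 1 or control replicate 2 and 0 without chronic replicate 2 or acute replicate 3. Of 96 calls over the 6 comparisons, 66 held in every such fit and 53 under all alternatives.

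Library totals moved the most, since the median of all genes shifted: 5 higher and 19 lower in acute, 7 and 2 in remission and 9 and 3 in chronic mice against control, 24 and 2 in remission and 0 lower in chronic against acute mice, and 0 higher in chronic against remission mice. Of the 37 acute folds, 14 changed sign there. Among these, Lamp2 (-0.081) and Man2b1 (-0.028) had passed with TMM, Gaa (-0.52), Lipa (-0.50) and Ppt1 (-0.46) passed as lower with library totals, and the other 9 passed with neither. The 6 top features held 48.3% to 56.2% of counts in control, 62.4% to 64.1% in acute, 56.4% to 60.4% in remission and 56.4% to 62.7% in chronic libraries. With totals that leave out these features and mitochondrial genes, 8 rose and 11 fell in acute mice against control. With the same totals 15 rose in remission, and 19 rose and 1 fell in chronic mice. The number lower in remission than in control mice, 0 with TMM, was 1 with totals that leave out the 6 top features and mitochondrial genes, 1 with DESeq2, 2 without the filter and 2 with only the groups compared, and the cause was not tested. The number lower in chronic than in acute mice was 4 with those totals and 1 with the title number in the model or with only the groups compared. With only the groups compared, 0 genes were higher in chronic than in remission mice. Of the 228 counts recomputed, 200 stayed within 1.5 times the value reported. How often changes under 2-fold are missed with these libraries is not known, since far fewer genes were called in the simulation than in acute against control mice.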

Other observations

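Within groups, the lysosomal genes tended to be highest in the same library. Chronic replicate 1 held the highest level of its group for 24 of the 37 genes (64.9%), beside 33.7% of all 12545 genes tested. Among control mice, replicate 3 held it for 23 (62.2%, beside 35.2% of all genes) and replicate 1 for 1 gene (2.70%, beside 31.1%). Acute replicate 3 held it for 20 (54.1%, beside 33.6%), and in remission mice the number per library ran from 8 to 16. Pld3, named after its values were seen, had 115, 80.7 and 45.7 CPM in chronic and 115, 80.9 and 58.4 CPM in remission libraries. Genes of one library are not independent, and these shares were noticed after the values were seen. Without chronic replicate 1, 16 of the 37 genes rose and 1 fell in chronic against control mice. Without control replicate 1, 14 rose in chronic and 11 in remission mice, and without control replicate 2 the numbers were 14 and 12. The shares of all genes that rose also fell. They were 6.58% in chronic and 3.90% in remission mice without control replicate 1, and 6.38% and 4.05% without control replicate 2. With all libraries they were 9.57% and 6.06%. In chronic mice the median of the lysosomal genes relative to all genes was 0.48 and 0.40 in these fits, beside 0.41 with all libraries. In remission mice it was 0.30 and 0.39, beside 0.37.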
